A study of Danio rerio with 12 samples.

Results

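Genes that stood highest in sorted tdTomato- cells of the adult zebrafish retina, relative to sorted LWS cones, were compared with lists of marker genes. Of the cell types on these lists, Müller glia was the one with more than 1 marker among them. The lists were chosen with earlier results of these data known, and most features of several other lists had too few counts to be ranked. That count is therefore a description. The members described here are 150 features of a count table of 30258. They were chosen from the read counts themselves. The 13 mitochondrial genes and 14 further genes were first removed, including the rod opsin gene rho, 3 opsin genes of other cones, and the glial genes apoeb, slc7a10a, ptgdsb.1, id1 and itgb5. Counts were then scaled to a common library size (CPM) in each library, which does not correct for transcript length, so that levels are compared between libraries and not between genes, and features with 5 or more counts in every tdTomato- library were kept, which left 3778. These were ranked by a score, the log2 ratio of the lowest tdTomato- CPM plus 5 to the highest CPM of the 9 cone libraries plus 5, and the first 150 (3.97% of those ranked) were taken. Every member therefore lay higher in all 3 tdTomato- libraries than in any cone library because it was chosen that way, as did 465 (12.3%) of the 3778 ranked, and values in tdTomato- cells against cones are given below as a description, without a test.

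Bulk RNA-Seq had been made from 12 libraries of cells sorted by FACS from retinas of adult zebrafish, 3 for each of 4 groups. The tdTomato- group held the retinal cells of the thrb2:tdTomato line that did not carry the red reporter. LWS2 and LWS1 cones came from the lws:PAC(H) line, in which a genomic clone of the lws locus reports lws2 with RFP and lws1 with GFP. The tdTomato+ group held cones of the thrb2:tdTomato line, in which the thrb2 promoter drives tdTomato in long wavelength-sensing (LWS) cones. All fish carried the genotype label WT besides their reporter transgenes, and no treatment other than sorting is labelled. Retinas were taken from dark-adapted fish of both sexes near light onset and were dissected away from the pigment epithelium, and the labels do not tie replicates to separate animals, so that the p-values given below measure the spread between these libraries, which may be in part technical. In bulk RNA, fewer cells of a type and less RNA per cell cannot be told apart.

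LWS cones are the cones that carry red-sensitive opsins. By the design of the sort, everything else in the dissociated retina should fall outside the tdTomato gate. That covers rods, the other cones, bipolar, amacrine, horizontal and ganglion cells, Müller glia, microglia and vessel cells. Transcripts of rods and other cones were still present in the tdTomato+ libraries, as given below. Müller glia are the radial glia of the retina. They take up glutamate released by neurons and turn it into glutamine, move water, potassium and bicarbonate across the tissue, store glycogen, handle retinoids, and in zebrafish can re-enter the cell cycle after injury, with Notch signaling holding them at rest.

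Totals ranged from 459226 counts (tdTomato- replicate 1) to 3189337 (tdTomato- replicate 2). Mitochondrial genes took 53.4% to 54.3% of counts in tdTomato- libraries and 12.9% to 71.7% in cone libraries, the highest being tdTomato+ replicate 2. After the removal, 196157 counts remained in tdTomato- replicate 1, where the minimum of 5 counts equals 25.5 CPM. A count of 3, taken as the smallest detectable value, equals 15.3 CPM in that library and 1.13 to 6.04 CPM in the cone libraries. Such limits cover counting error only, because reads that carry no molecular identifier can be copies of one molecule. Thyroid hormone receptor gene thrb, whose promoter drives the reporter, had 20.4, 61.9 and 170.3 CPM in tdTomato- replicates 1, 2 and 3 and 812, 1636 and 2149 CPM in tdTomato+ replicates, so the sort labels hold for the reporter's own gene.

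The label cone photoreceptor, which the deposited descriptions give to all 12 samples, was checked with 18 lists of marker genes, 437 symbols of which 410 matched a feature. Müller glia markers supplied 10 of the 150 members, namely slc1a2b, cahz, ptgdsb.2, glula, notch3, efhd1, aqp1a.1, RGR, s1pr1 and glulb, out of 30 list features left after the removal and 16 that passed the count minimum. Rod markers supplied 0 members although 28 of 29 passed the minimum. That count turned on the tdTomato+ libraries: with LWS1 and LWS2 as the only cone libraries 3 rod and 8 Müller glia markers were taken, and without tdTomato+ replicate 2 alone 1 rod marker was taken, beside 10 Müller glia markers. The bipolar, amacrine, ganglion, pigment epithelium, vessel, red blood cell, oligodendrocyte, lens, synaptic receptor, presynaptic, proliferation, other-cone and shared-cone lists supplied 0 members each. The horizontal cell list gave PROX1, the microglia and macrophage list gave lcp1, and the immediate early and stress list gave junba. Only 3 of 34 bipolar, 3 of 39 amacrine and 0 of 40 synaptic receptor features reached 5 counts in every tdTomato- library, so most of those lists could not be ranked at this depth.

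**Figure D1:**
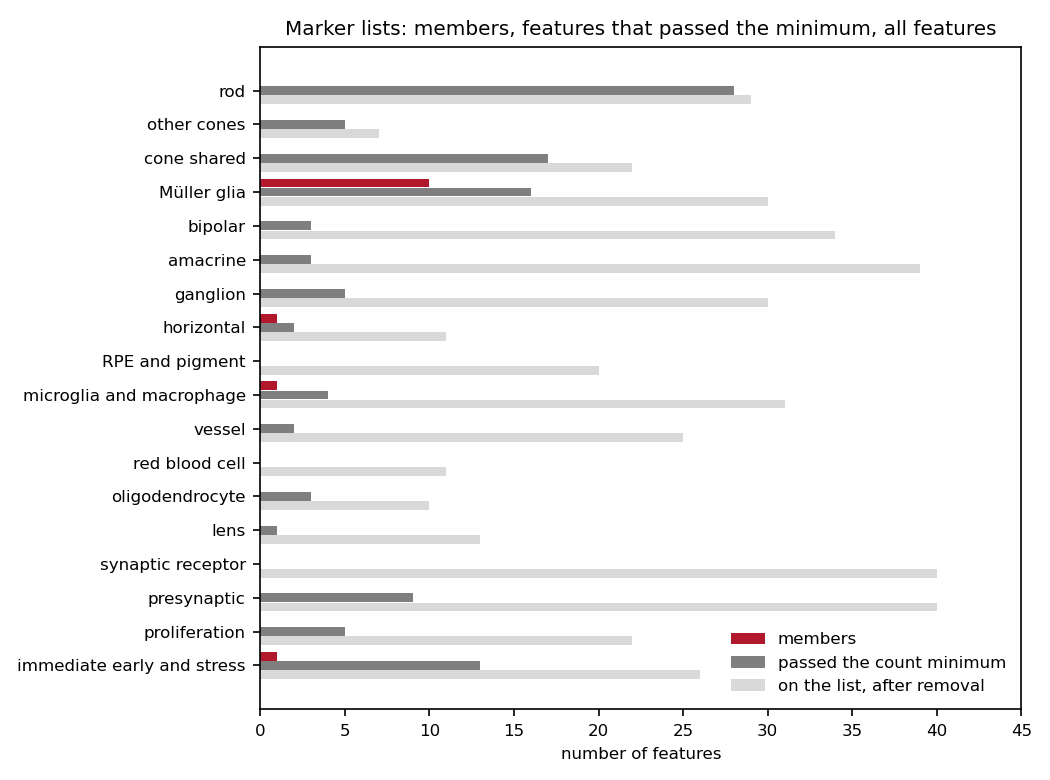
Number of features on each of the 18 marker lists (x axis, features) that were members (red), passed the minimum of 5 counts in every tdTomato- library (dark grey) or were left on the list after the removal (light grey). The Müller glia list has 10 members of 16 that passed, while the rod list has 0 of 28.

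Cone and rod transcripts stayed abundant in the tdTomato- libraries. The shared-cone list also holds genes of LWS cones themselves, namely opn1lw1, opn1lw2 and thrb. The summed level of the 22 shared-cone features was 82398, 87646 and 111883 CPM in tdTomato- replicates, against 161066, 134913 and 137291 CPM in LWS2, 174490.3, 172458 and 200858 CPM in LWS1 and 171561, 180624 and 147392 CPM in tdTomato+ replicates. Among them pde6ha, a subunit of the cone phosphodiesterase, had 49960.0, 37845 and 52288 CPM in tdTomato- cells and 63064, 69930.1 and 45194 CPM in tdTomato+ cones. The 29 rod features summed to 17129, 26005 and 22695 CPM in tdTomato- replicates and to 21123, 23536 and 17529.7 CPM in tdTomato+ replicates, ranges that overlap, and the rod transducin gene GNAT1 alone had 2998, 4935 and 4289 CPM against 1859.9, 3584 and 1236 CPM. The members are therefore described by their rule, as genes higher in tdTomato- cells than in any sorted cone library, and not as the genes of the whole retina outside LWS cones.

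Marker features that are not members were compared between tdTomato- and tdTomato+ by edgeR's quasi-likelihood method, with a call requiring an FDR below 0.05 and at least a 2-fold change, which called 164 of 8236 features higher in tdTomato- (1.99%) and 12 lower (0.146%). Among Müller glia markers, 8 that are neither members nor among the removed genes were tested, and mdka and HEPACAM, a glial adhesion gene, passed, both higher in tdTomato-. The growth factor gene mdka had 509.8, 1229 and 1125 CPM in tdTomato- and 36.0, 228 and 135 CPM in tdTomato+ replicates, a log2 fold change of 2.73 with an SE of 0.612 and an edgeR FDR of 0.0421. The retinoid carrier gene rlbp1a (log2 fold change 3.18 with an SE of 0.806 and an edgeR FDR of 0.067) and the glial filament gene gfap (2.76 with an SE of 0.76 and an edgeR FDR of 0.0895) missed the threshold, and aldocb, the marker of the list with the most tdTomato- counts outside the members, was not higher in tdTomato- (-0.54 with an SE of 0.506 and an edgeR FDR of 0.731). Of these 8, 7 had an unadjusted p under 0.05, and DESeq2 and limma-voom each called 6. All 5 removed genes of the list passed in edgeR. The lists were chosen with earlier results of these data known, so these calls are a description and not independent support. Of 28 rod features tested, 0 passed, with 5 at an unadjusted p under 0.05 (13.4% of all features), 0 called by DESeq2 and 4 called lower by limma-voom. Of these 5, ROM1 was higher in tdTomato-, and cngb1b, grk1b, SAMD7 and 1 RGS9 feature were lower. Most of the other rod features tested were higher in tdTomato- without passing, with log2 fold changes from 0.01 (rcvrna) to 1.79 (rs1a). The rest were lower without passing, down to -1.34 (cngb1a). The removed gene rho was higher in tdTomato- without passing (log2 fold change 1.98 with an SE of 0.757 and an edgeR FDR of 0.255).

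Elsewhere on the lists, the genes called included dusp2 of the stress list, higher in tdTomato-. Lower in tdTomato- were thrb, the inhibitory transporter gene slc32a1 and 1 of 2 opn1lw2 features. The other opn1lw2 feature missed the threshold (log2 fold change -3.22 with an SE of 0.817 and an edgeR FDR of 0.067). Counting the removed genes, with opn1sw1, fosab, junbb and jun among them, 16 of 173 list features outside the members were called. That count was 0 without tdTomato- replicate 2 or without tdTomato+ replicate 3, and 8 without tdTomato- replicate 3 or tdTomato+ replicate 1. DESeq2 called 41 and limma-voom 51. An unadjusted edgeR p under 0.05 was found for 5 of 7 ganglion, 2 of 3 oligodendrocyte and 2 of 3 microglia and macrophage features tested. All of these were higher in tdTomato-, and edgeR called 0 of them. On these lists DESeq2 called 2, 2 and 2 features higher, and limma-voom 4, 1 and 2. The same p was found for 4 of 23 presynaptic and 2 of 7 synaptic receptor features, all lower in tdTomato-. For each other list, the gene with the highest tdTomato- mean outside the members overlapped the cone libraries for opn1sw2 (other cones), cabp5a, GAD1, sncga, OMP, RPE65, cd74a, hbaa1, mbpa, GRIN1, SNAP25, hmgb2a and GADD45B, and lay above all 9 of them for pdgfrb (vessel) and cryba4 (lens).

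As sums, the ganglion, horizontal, vessel, oligodendrocyte and lens lists lay above all 9 cone libraries in every tdTomato- library, as the Müller glia list did. The ganglion features summed to 336, 685 and 834 CPM in tdTomato- replicates and to at most 279 CPM in any cone library, and the oligodendrocyte features to 331, 326 and 799 CPM against at most 263 CPM. The horizontal cell features, PROX1 included, summed to 199, 190.2 and 138 CPM in tdTomato- against at most 126 CPM. Single features above all 9 cone libraries numbered 3 of 30 for ganglion cells, 2 of 10 for oligodendrocytes, 2 of 31 for microglia and macrophages and 3 of 25 for vessels. They numbered 5 of 26 on the immediate early and stress list and 2 of 29 on the rod list, beside 810 of all 30231. On the Müller glia list 16 of 30 lay there. Of these, 10 are members, which lay there by the rule and also enter the list's sum. The members PROX1, lcp1 and junba likewise lay there by the rule.

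The first 15 members by score included genes of the basement membrane, of glial membranes and of amino acid metabolism. Highest of all was si:ch211-152c2.3 (ENSDARG00000045898), with 566, 881 and 777 CPM in tdTomato- replicates 1, 2 and 3, against 23.2, 56.6 and 35.0 CPM in LWS2, 40.2, 42.4 and 36.3 CPM in LWS1 and 12.2, 72.9 and 47.4 CPM in tdTomato+ replicates. Its mean in tdTomato- was 741 ± 160.5 CPM (SD, n = 3), 18.2-fold that of the 9 cone libraries. The role of this gene is not given by the annotation used here. The feature ENSDARG00000100904, which has no symbol, came next but one and had 112, 44.7 and 44.1 CPM in tdTomato- and at most 2.52 CPM in any cone library.

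Collagen genes followed. The basement membrane collagen gene col18a1a (ENSDARG00000036558) had 112, 170.0 and 145 CPM in tdTomato- replicates, against 0.553, 11.2 and 7.91 CPM in LWS2, 2.62, 10.3 and 0 CPM in LWS1 and 0.936, 10.1 and 10.2 CPM in tdTomato+. Its relative col15a1b (ENSDARG00000061848) had 428, 895 and 734 CPM in tdTomato-, against 13.3, 54.7 and 20.3 CPM in LWS2, 20.1, 65.5 and 26.2 CPM in LWS1 and 2.81, 65.4 and 87.3 CPM in tdTomato+. Replicate 1 of each group was the lowest or next to lowest library for both genes. Also among the first 15 were bmp1b, a protease that trims procollagens, with 132, 120.3 and 70.4 CPM in tdTomato-, and the hyaluronidase gene hyal6, with 56.1, 120.3 and 87.2 CPM, where no cone library exceeded 9.70 and 7.16 CPM.

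Glial membrane genes were represented by mlc1 (ENSDARG00000063026), whose mammalian counterpart sits in the endfeet of astrocytes, with 189, 218 and 255 CPM in tdTomato- and 4.98, 24.8 and 6.40 CPM in LWS2, 3.50, 10.3 and 6.04 CPM in LWS1 and 0, 12.6 and 12.7 CPM in tdTomato+. The glial receptor gene gpr37l1b (ENSDARG00000056774) had 117, 136 and 98.8 CPM in tdTomato- and 0 counts in 6 of 9 cone libraries. The metabotropic glutamate receptor gene grm2b (ENSDARG00000007195) had 81.6, 95.1 and 72.5 CPM in tdTomato- and 0 counts in 4 of 9. It was grouped by name with signaling genes and is on none of the marker lists, the synaptic receptor list included. In cones the highest values of these genes were 24.8 CPM for mlc1, 15.1 CPM for gpr37l1b and 8.54 CPM for grm2b, all in LWS2 replicate 2.

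More counts came from cdo1 (ENSDARG00000099389), the enzyme that starts the conversion of cysteine to taurine, with 1234, 1054 and 972 CPM in tdTomato-, against 37.6, 98.5 and 54.2 CPM in LWS2, 75.2, 152 and 92.7 CPM in LWS1 and 18.7, 138 and 71.2 CPM in tdTomato+. The glial glutamate transporter gene slc1a2b (ENSDARG00000102453) had 1611, 2508 and 1991 CPM in tdTomato-, against 37.6, 199.8 and 90.0 CPM in LWS2, 85.7, 343 and 115 CPM in LWS1 and 14.0, 216 and 153 CPM in tdTomato+. Means over the 9 cone libraries were 7.55% and 6.84% of the tdTomato- means. The remaining genes among the first 15 were si:ch211-214p13.3, si:dkey-219c10.4, the villin-like gene vill and plekhg7, with cone means at 2.2% to 8.44% of their tdTomato- means.

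**Figure D2:**
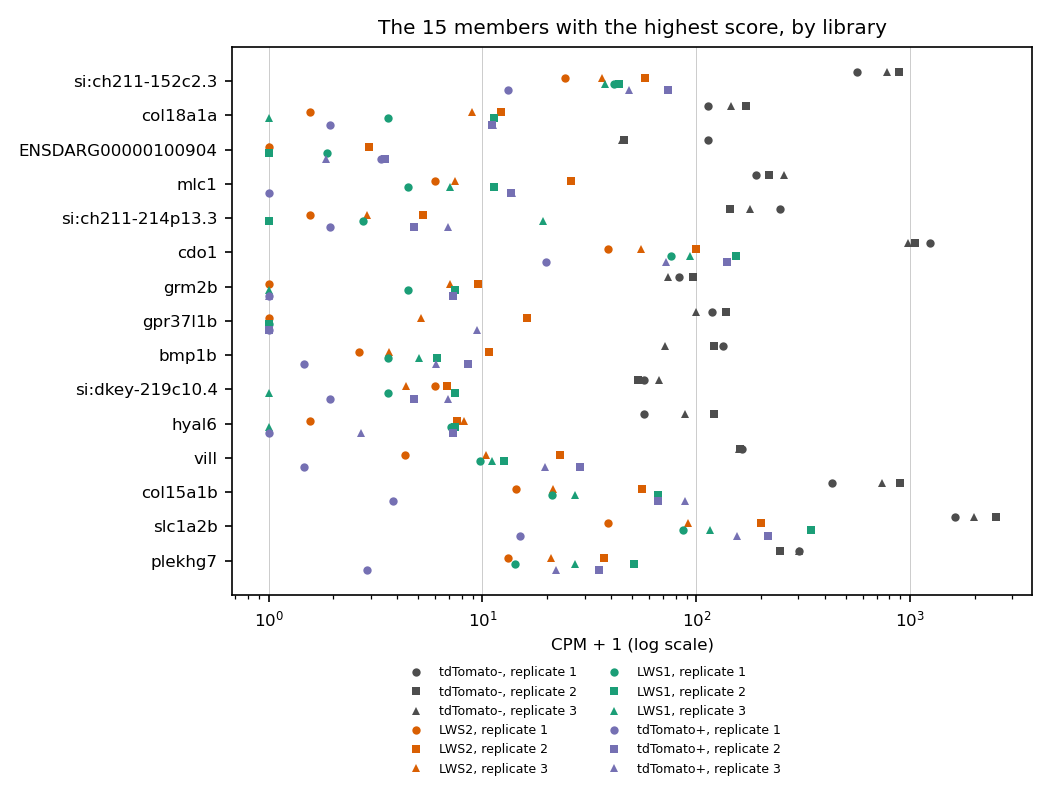
CPM plus 1 (x axis, log scale) of the 15 members with the highest score in each library, with color for the group and shape for the replicate. The 3 tdTomato- libraries lie to the right of all 9 cone libraries for every gene, as the ranking required.

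Glutamate, amino acid and energy metabolism formed the named group with the most counts. Glutamine synthetase, encoded by glula (ENSDARG00000099776), took the most tdTomato- counts of all members, with 3818, 6624 and 5562 CPM in tdTomato- replicates, against 264, 766 and 435 CPM in LWS2, 422, 968 and 721 CPM in LWS1 and 90.8, 815 and 318 CPM in tdTomato+. Its mean was 5335 ± 1417 CPM in tdTomato- (SD, n = 3). The second copy glulb had 163, 383 and 404 CPM in tdTomato-. With slc1a2b, which brings glutamate into the cell, these genes cover uptake and conversion to glutamine.

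The same group held gyg1b, which primes glycogen, and pygl, which breaks it down, at 479, 345 and 265 CPM and 143, 405 and 318 CPM in tdTomato-. It also held phgdh of serine synthesis and UCP2 of the mitochondrial membrane. Enolase gene eno1a and the glutamate dehydrogenase gene glud1b were different in that cones kept more of them, with cone means at 23.7% and 27.4% of the tdTomato- means. Over the 10 genes of this group, assigned by gene name after the members were known, the cone mean was between 6.84% and 27.4% of the tdTomato- mean (median 10.1%), where the median over all 150 members was 8.05%.

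Genes of water, ion and acid-base balance made up 8 members. The carbonic anhydrase gene cahz (ENSDARG00000011166) had 1703, 3412 and 2723 CPM in tdTomato-, against 113, 324 and 187 CPM in LWS2, 178, 359.6 and 232 CPM in LWS1 and 43.1, 386 and 151 CPM in tdTomato+. The water channel gene aqp1a.1 (ENSDARG00000023713) had 367, 1382 and 1166 CPM in tdTomato-, against 7.19, 48.9 and 31.6 CPM in LWS2, 16.6, 113 and 50.4 CPM in LWS1 and 2.81, 89.3 and 27.1 CPM in tdTomato+. Both were lowest in replicate 1 of all 4 groups. The pump that exchanges sodium for potassium gave 4 subunit genes, atp1a1b, atp1a1a.1, atp1b3a and atp1b4, and atp1a1b (ENSDARG00000019856) was, with glula, cahz, slc1a2b and eno1a, among the 5 members with the most tdTomato- counts, at 1040.0, 2755 and 1946 CPM. In LWS1 replicate 1 it had 0 counts, beside 129 and 144 counts in LWS1 replicates 2 and 3, and how reads matching more than 1 pump gene were assigned there was not tested.

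Retinoid, prostaglandin and lipid genes numbered 12. The prostaglandin D synthase gene ptgdsb.2 (ENSDARG00000071626) had 387, 1688 and 1304 CPM in tdTomato-, against 21.6, 52.0 and 25.6 CPM in LWS2, 36.7, 39.8 and 54.4 CPM in LWS1 and 5.15, 86.8 and 31.4 CPM in tdTomato+. Its near copy ptgdsb.1 was removed before ranking, and reads could be shared between them. Retinoid genes in this group were RGR, an opsin-like retinoid protein, with 30.6, 54.0 and 32.6 CPM in tdTomato-, the retinol dehydrogenase gene rdh10a, with 96.9, 284 and 172 CPM, the retinoic acid binding protein gene crabp1a, with 158, 164 and 225 CPM, and the retinaldehyde dehydrogenase genes aldh1a3 and ALDH1A2. In cones the 12 genes had means at 3.07% to 14.7% of those in tdTomato-.

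Signaling genes mostly had few counts. The Notch pathway gave 5 members, the receptor notch3 with 153, 72.0 and 69.4 CPM in tdTomato-, the fringe glycosyltransferase lfng with 86.7, 501 and 389 CPM, the feedback inhibitor NRARP with 35.7, 53.3 and 35.7 CPM, and the targets her15.1 and her15.2 with 25.5, 50.4 and 53.6 CPM and 25.5, 24.5 and 18.9 CPM. The last pair are near copies whose reads could be split. Wnt receptors fzd5, FZD7 and FZD8 and the cadherin CELSR1 had at most 71.4 CPM in any tdTomato- library. Of the growth factors, tgfb3 had 86.7, 358 and 368 CPM and FGF8 30.6, 15.8 and 13.7 CPM in tdTomato-, and FGF8 had 0 counts in 7 of 9 cone libraries. The lipid receptor gene s1pr1 had 91.8, 516 and 358 CPM in tdTomato-. Over 15 such signaling genes outside the Notch pathway, cone means were 1.06% to 7.72% of tdTomato- means, and over the 5 Notch genes 2.71% to 8.91%.

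Matrix and adhesion genes were the largest group assigned, with 18 members. Besides the collagens they included sparc, a matrix protein of glia and vessels, with 398, 1148 and 950.1 CPM in tdTomato-, sbspon with 255, 99.4 and 71.5 CPM, and the adhesion genes cdh2, ncam1a, chl1a, nfasca and jam2a. Caveolae and cytoskeleton genes gave 9, with CAV2 at 51.0, 67.7 and 55.7 CPM, cavin2a at 280.4, 711 and 552 CPM and the vimentin-like gene viml at 81.6, 117 and 117 CPM in tdTomato-. The transcription factor genes CEBPD, cebpb, PROX1, skor1a and junba were also members. PROX1 (ENSDARG00000055158), which marks horizontal cells but is also made by other retinal cells, had 40.8, 36.0 and 37.8 CPM in tdTomato-, and junba had 76.5, 58.3 and 73.6 CPM. Metallothionein gene mt2 stood at 1188, 1861 and 1651 CPM in tdTomato-.

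Leukocyte-associated genes dock8, grna.1, lcp1 and aif1l were highest in tdTomato- replicate 1 for 3 of 4. The leukocyte actin-bundling gene lcp1 had 56.1, 18.7 and 16.8 CPM in tdTomato- replicates 1, 2 and 3, and dock8 had 301, 90.0 and 109 CPM. The summed level of the 31 microglia and macrophage features was 775, 627 and 223 CPM in tdTomato- replicates, against 73.6, 247 and 129 CPM in LWS2, 88.3, 374 and 280.0 CPM in LWS1 and 25.3, 197 and 26.3 CPM in tdTomato+. Its part in these genes' levels was not tested. In all, 92 members were placed in 10 such groups by name and 58 in none.

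At the end of the ranking lay dap1b, nfasca and ifi44a8 inside the set, and alpl, cyfip1 and zgc:195173 just outside. Scores of these 6 were 0.97, 0.96, 0.96, 0.96, 0.96 and 0.96, and the highest score was 2.87. The interferon-induced gene ifi44a8 had 5, 10 and 9 counts in tdTomato- and a single count in 1 of 9 cone libraries. It was one of the 3 members with the fewest tdTomato- counts per library size, with FZD7 and the carboxylesterase gene ces2b. In tdTomato- replicate 1, 46 of the 150 members had 10 or fewer counts.

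Within the tdTomato- group the members split between libraries. The ratio of the highest to the lowest tdTomato- CPM had a median of 1.85 over the 150 and was under 2 for 88. It was narrowest for vill, ube2e2 and the myosin light chain gene myl9b, at 1.04, 1.08 and 1.08. It was widest for cyp2ad3, a cytochrome P450 gene with 143, 11.5 and 14.7 CPM (28, 16 and 14 counts), for the sterol synthesis gene hsd17b7 with 260.0, 34.6 and 37.8 CPM, and for lfng, at 12.4, 7.52 and 5.78. In replicate 1, cyp2ad3 and hsd17b7 were high and lfng was low.

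Müller glia markers shared the second pattern. Of the 10 on the list, 9 (all but notch3) were lowest in tdTomato- replicate 1, as were 7 of the 8 water and ion genes, against 73 of all 150 members. Summed over the 10 genes, the level was 8524, 16985 and 13992 CPM in tdTomato- replicates 1, 2 and 3, and over the other 140 it was 22879.6, 30406 and 26214 CPM. The choice of members leaned on that library, which is the shallowest: without it, only 66 of the 150 were taken again, from 9937 features ranked, with 13 Müller glia markers instead of 10.

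**Figure D3:**
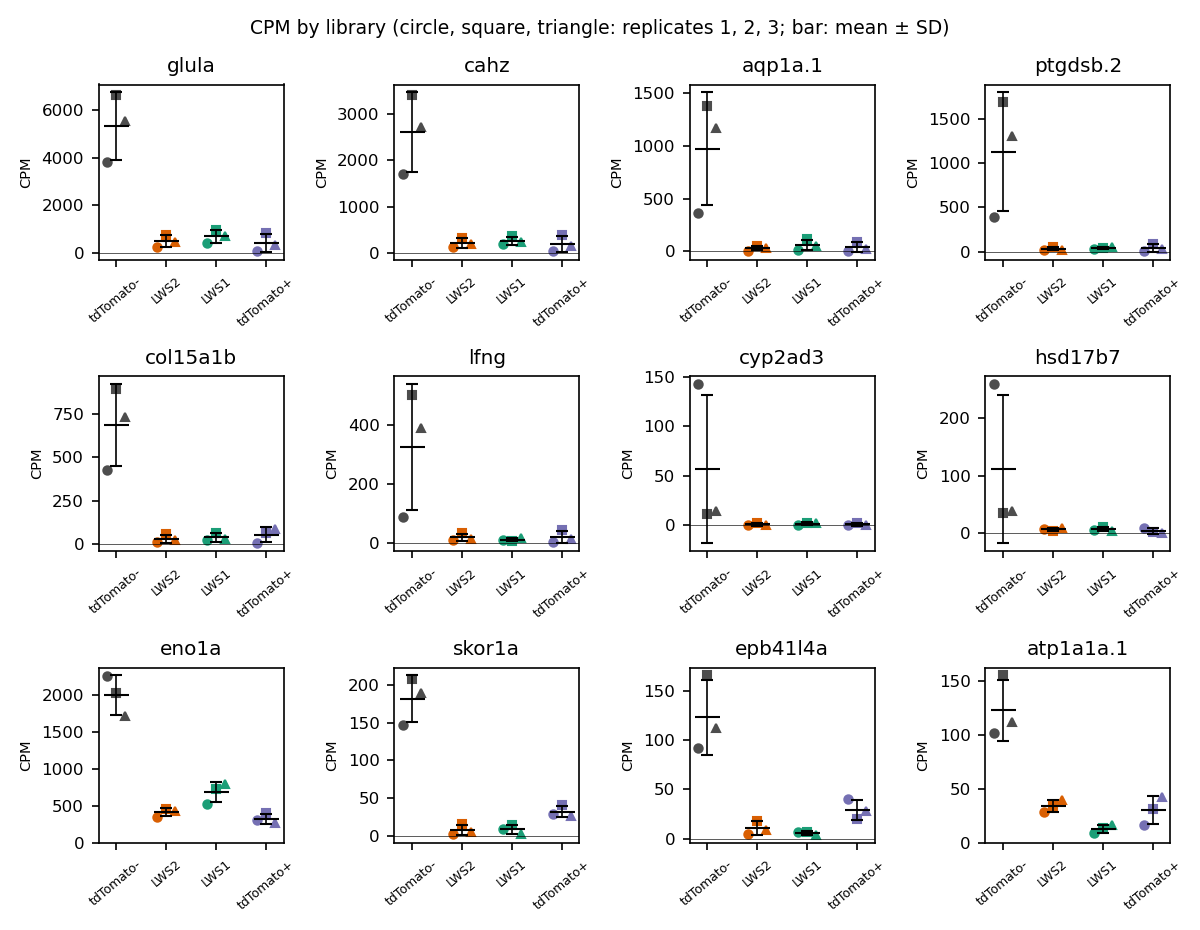
CPM (y axis, linear) of 12 members in the 12 libraries, with circles, squares and triangles for replicates 1, 2 and 3 and bars for the mean ± SD (n = 3). The tdTomato- replicates spread widely for ptgdsb.2, lfng, cyp2ad3 and hsd17b7, and for skor1a and epb41l4a the LWS2 and LWS1 libraries lie below the tdTomato+ libraries.

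Members were low but seldom absent in cones. None had 0 counts in all 9 cone libraries, and 86 had at least 1 count in each. The members took 3.97% ± 0.801 of the counts left after the removal in tdTomato- libraries, 0.353% ± 0.153 in LWS2, 0.449% ± 0.138 in LWS1 and 0.376% ± 0.222 in tdTomato+ (SD, n = 3 each). Relative to the tdTomato- mean, the summed level was 8.90% in LWS2, 11.3% in LWS1 and 9.49% in tdTomato+. As a share of all counts, with mitochondrial and removed genes kept, these became 17.6%, 19.1% and 9.76%.

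Library by library, the summed level of members was 2099.9, 5140.3 and 3354 CPM in LWS2 replicates 1, 2 and 3, 3059.8, 5818 and 4603 CPM in LWS1 and 1597, 6032 and 3663 CPM in tdTomato+. The spread inside each cone group was wider than the differences between the group means. For the Müller glia markers alone the sums were 487, 1535 and 840.0 CPM in LWS2, 836, 1939 and 1273 CPM in LWS1 and 172, 1701 and 778 CPM in tdTomato+. tdTomato+ replicate 1 held the least, at 1.31% of the tdTomato- mean, and LWS1 replicate 2 the most, at 14.7%.

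**Figure D4:**
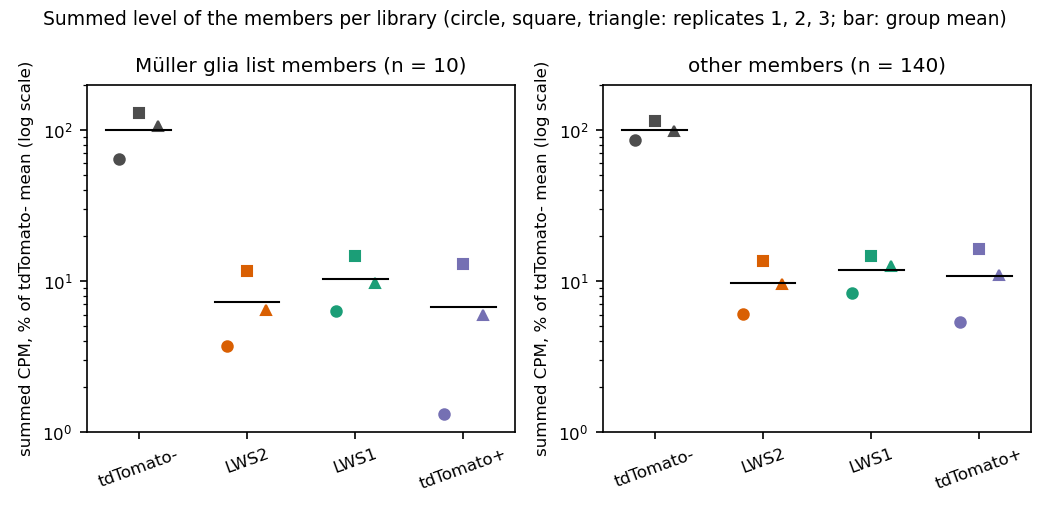
Summed CPM as a percent of the tdTomato- mean (y axis, log scale) for the 10 Müller glia list members (left) and the other 140 members (right) in each library, with shapes for replicates 1, 2 and 3 and bars for group means. Cone libraries lie between 1.31% and 14.7% on the left and between 5.38% and 16.3% on the right, and the 3 cone groups overlap.

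Most members followed these library sums. Of the 149 with counts in LWS2, 119 (79.9%) were highest in replicate 2 and 124 (83.2%) lowest in replicate 1, against 41.6% and 50.3% of all ranked features with counts there. In tdTomato+, 120 of 149 (80.5%) were lowest in replicate 1, against 45.4% of all ranked features. There 92 (61.7%) were highest in replicate 2, against 28.8%. In LWS1, 76 of 144 (52.8%) were highest in replicate 2, against 37.2%. Most marker lists were lowest in tdTomato+ replicate 1 too. The 25 vessel features summed to 16.4, 79.2 and 97.4 CPM and the 31 microglia features to 25.3, 197 and 26.3 CPM in tdTomato+ replicates 1, 2 and 3. Also lowest there were the bipolar, amacrine, ganglion, horizontal, pigment epithelium, red blood cell, oligodendrocyte, lens, synaptic receptor and presynaptic sums. The rod, shared-cone, proliferation and immediate early sums were not. Highest in replicate 1 were the other-cone features, at 12693, 5926 and 4577 CPM, and the whole Müller glia list with aldocb, at 5531, 5288 and 3551 CPM. The rod sums given above differed less. Mitochondrial shares in these 3 libraries were 22.0%, 71.7% and 41.2%, and their part in the members' levels was not tested.

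Whether the members differed between the cone groups was asked with the same edgeR method, fitted on all features of each pair of groups. The rule had already ranked them by their highest value in any cone library. A gene strongly raised in a single cone group was thus less likely to be a member. The counts of calls below depend in part on that choice and hold for these members only. Comparisons with tdTomato+ also set the lws:PAC(H) line against the thrb2:tdTomato line. Line and cone type cannot be told apart in them. In LWS2 vs LWS1, 87 of 150 members passed the filter on low counts and 0 were called differentially expressed (DE), where 101 of 8432 features (1.2%) were higher in LWS2 and 51 (0.605%) lower. An unadjusted p under 0.05 was found for 10 members, 2 higher and 8 lower in LWS2, against 7.19% and 7.38% of all features tested, and DESeq2 and limma-voom also called 0. The libraries did not overlap for 5 members higher and 5 lower in LWS2, against 18.3% and 4.82% of all features. The median log2 fold change of the members was -0.49, against -0.02 over all features, and it moved to -1.02 without LWS2 replicate 2 and to -0.04 without LWS1 replicate 2.

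The smallest p belonged to the enolase gene eno1a (ENSDARG00000022456). It had 350.2, 457 and 437 CPM in LWS2 and 529, 734 and 789.6 CPM in LWS1 replicates. The LWS2 libraries all lay below the LWS1 libraries, with a log2 fold change of -0.91 with an SE of 0.225 and an edgeR FDR of 0.0842. Without LWS1 replicate 1 the change was -1.12 (edgeR FDR = 0.0246), past both thresholds, and over all alternatives its adjusted p ran from 0.00842 to 0.426. DESeq2 gave a log2 fold change of -0.97 (adjusted p = 0.00842), so there eno1a missed only the 2-fold threshold. The endocytic receptor gene lrp1aa (ENSDARG00000097827) had 23.8, 43.1 and 26.4 CPM in LWS2 and 49.9, 66.8 and 50.4 CPM in LWS1, a log2 fold change of -1.01 with an SE of 0.362 and an edgeR FDR of 0.237. In the other direction, the sodium pump gene atp1a1a.1 (ENSDARG00000002791) had 28.8, 34.1 and 39.9 CPM in LWS2 and 8.75, 14.1 and 16.1 CPM in LWS1, a log2 fold change of 1.25 with an SE of 0.46 and an edgeR FDR of 0.25. None of these genes passed both thresholds in the main fit.

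In LWS1 vs tdTomato+, 71 members were tested and 0 were called by edgeR, DESeq2 or limma-voom, where edgeR called 1 of 7214 features higher in LWS1 (0.0139%) and 0 lower. An unadjusted p under 0.05 was found for 4 members, 2 higher and 2 lower in LWS1, against 2.44% and 2.94% of all features. Libraries did not overlap for 5 members higher and 6 lower in LWS1, against 4.95% and 5.08%. The median log2 fold change was 0.11, against -0.04 over all features, and lay between -0.34 (without tdTomato+ replicate 1) and 0.68 (without tdTomato+ replicate 2). Again eno1a had the smallest p, with 529, 734 and 789.6 CPM in LWS1 and 303, 399 and 264 CPM in tdTomato+, a log2 fold change of 1.11 with an SE of 0.373 and an edgeR FDR of 0.631. The cyclooxygenase gene ptgs2b (ENSDARG00000010276) had 19.2, 51.4 and 34.2 CPM in LWS1 and 2.81, 16.4 and 12.7 CPM in tdTomato+, a log2 fold change of 1.82 with an SE of 0.758 and an edgeR FDR of 0.806.

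In LWS2 vs tdTomato+, 96 members were tested and edgeR called 0, where 68 of 9598 features (0.708%) were higher in LWS2 and 13 (0.135%) lower. An unadjusted p under 0.05 was found for 5 members, 1 higher and 4 lower in LWS2, against 4.93% and 5.11% of all features, and DESeq2 and limma-voom called 1 each, the transcriptional corepressor gene skor1a. Libraries did not overlap for 2 members higher and 3 lower in LWS2, against 14.8% and 3.31%. Median log2 fold changes were -0.24 for the members and -0.06 for all features, and the members' median lay between -0.69 (without LWS2 replicate 2) and 0.32 (without tdTomato+ replicate 2).

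The gene skor1a (ENSDARG00000069030) had 2.21, 14.7 and 5.27 CPM in LWS2, 8.75, 14.1 and 2.01 CPM in LWS1 and 29.0, 40.2 and 26.3 CPM in tdTomato+ replicates, beside 148, 208 and 190.2 CPM in tdTomato- replicates. All 6 LWS2 and LWS1 libraries, which came from the other line, lay below the 3 tdTomato+ libraries. Its log2 fold change in LWS2 vs tdTomato+ was -2.23 with an SE of 0.637 and an edgeR FDR of 0.207. In LWS1 vs tdTomato+ it was -1.88 with an SE of 0.725 and an edgeR FDR of 0.725, and the 2 are comparisons that share the tdTomato+ libraries. DESeq2 gave -2.29 in LWS2 vs tdTomato+ (adjusted p = 0.0243) and limma-voom -2.55 (adjusted p = 0.0385), and over all alternatives the adjusted p ran from 0.0243 to 0.848. Unlike most members, skor1a was not lowest in tdTomato+ replicate 1.

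Next by p were 2 genes of the cell cortex. The actin-binding gene ablim1a (ENSDARG00000060149) had 34.3, 38.8 and 50.5 CPM in LWS2 and 90.8, 55.3 and 73.7 CPM in tdTomato+, a log2 fold change of -1.01 with an SE of 0.347 and an edgeR FDR of 0.333. The FERM domain gene epb41l4a (ENSDARG00000040087) had 4.98, 18.2 and 9.04 CPM in LWS2 and 40.3, 20.1 and 28.0 CPM in tdTomato+, a log2 fold change of -1.64 with an SE of 0.564 and an edgeR FDR of 0.337. For both genes every LWS2 library lay below every tdTomato+ library, and neither passed the adjusted threshold.

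**Figure D5:**
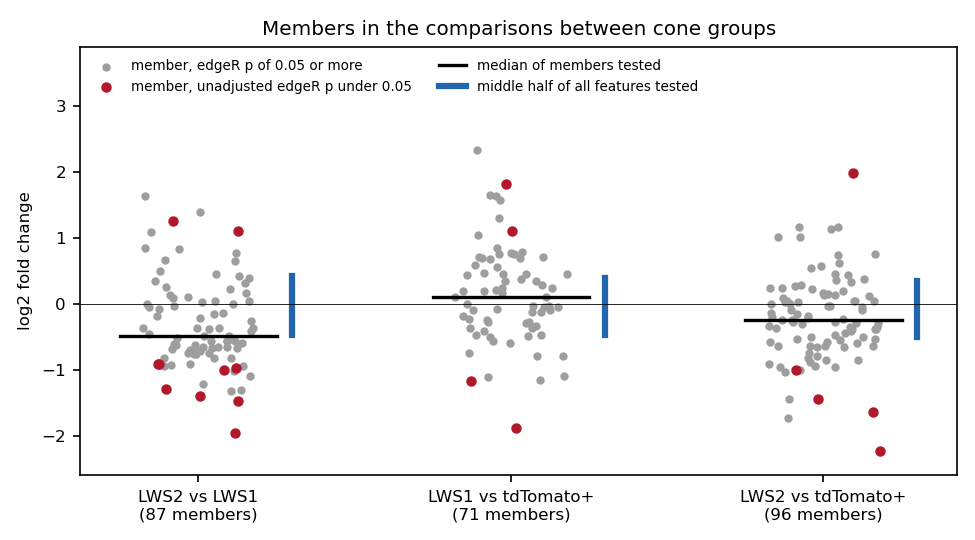
Log2 fold change (y axis) of the members tested in the 3 comparisons between cone groups, with red points for an unadjusted edgeR p under 0.05, black lines for the members' median and blue lines from the lower to the upper quartile of all features tested. Medians are -0.49, 0.11 and -0.24, and no member is called DE, after a choice that favored genes low in every cone library.

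The members with the highest mean over the 9 cone libraries, relative to the tdTomato- mean, were glud1b, the plexin gene PLXNB1, slmapb and eno1a. Of these slmapb had 71.4, 86.4 and 75.7 CPM in tdTomato-, against 13.3, 24.8 and 22.6 CPM in LWS2, 28.9, 20.6 and 20.1 CPM in LWS1 and 7.96, 20.1 and 13.6 CPM in tdTomato+. For glud1b the values were 107, 123 and 85.1 CPM in tdTomato-, against 28.8, 33.0 and 39.5 CPM in LWS2, 24.5, 8.99 and 24.2 CPM in LWS1 and 34.2, 39.0 and 27.1 CPM in tdTomato+. Their cone means, 24.5% and 27.4% of tdTomato-, compare with the median of 8.05% over all members.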

How the data were processed

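RNA was sequenced from 12 libraries in 4 groups of 3, grouped by sample title. The authors trimmed reads (Trimmomatic 0.36), used STAR and Salmon (0.13.1 in the submitters' processing notes) against GRCz11 and deposited whole-number counts for 30258 features, not normalized. Their 2 tables of DESeq2 fold changes and p-values were used for 1010 gene symbols only, and their 12 per-sample columns were left unused. A reference name table gave 22639 further symbols, some in capitals after another species.

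Features were filtered (filterByExpr), TMM-normalized and tested with edgeR 4.0.16 in R 4.3.3, with Benjamini-Hochberg adjustment. A feature was DE at an FDR below 0.05 and an absolute fold change above 2. Alternatives (78 planned, 20 added after the data were seen) covered DESeq2 1.42.0, limma-voom 3.58.1 with quality weights, scaling, filters, the replicate block, removed genes, the ranking rule and each library left out. The tests were tried on simulated counts. Members, marker lists and role groups were chosen with earlier results of these data known. Genes were named by fixed rules on score, list, p, level, spread and residual level. The role groups came from gene names after the members were seen. Not every marker gene called is reported by name here.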

Additional observations from a re-analysis of the deposited data

How the results depend on the processing

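Calls of members were sensitive to method only at the margin. In LWS2 vs LWS1, 0 members were called, 1 without a filter on low counts (nfasca), and 0 to 1 with a library left out. In LWS1 vs tdTomato+ the count was 0 under every alternative run. In LWS2 vs tdTomato+, 1 member (skor1a) was called by DESeq2, by limma-voom, without the filter and with the replicate number as a block, and 0 with any library left out. Correlations of same-numbered libraries' deviations ran from -0.12 to 0.238, which cannot settle whether the numbers pair the samples. The members' summed level was lowest in replicate 1 and highest in replicate 2 in all 4 groups. The replicate block changed no member's call besides that of skor1a. Marker features outside the members that were called in tdTomato- vs tdTomato+ numbered 16 in the main fit, 41 by DESeq2 and 51 by limma-voom. That number was 45 without the filter, 40 with all groups in one fit and 0 to 19 with a library left out. Of the 150 members, 95 were taken again by group means and 66 to 149 with a library left out (66 without tdTomato- replicate 1), with 10 to 13 Müller glia markers. As a share of all counts the summed level was 17.6% of tdTomato- in LWS2 and 19.1% in LWS1, against 8.90% and 11.3% after the removal. These measures differ only in the total that the members' counts are divided by. Mitochondrial genes took 53.4% to 54.3% of that total in tdTomato- libraries, 12.9% to 13.8% in LWS2 and 18.9% to 29.7% in LWS1. Causes of the other shifts were not tested. Counts of 5 in the shallowest library limit the ranking of low genes.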

Other observations

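Members with 2 features of the same symbol were prdx6 (ENSDARG00000043511 and ENSDARG00000116085), a peroxiredoxin gene, and aldh9a1a.1 (ENSDARG00000114905 and ENSDARG00000069100), an aldehyde dehydrogenase gene, and how reads were divided between the copies was not tested. Of members at over 50 CPM in both other libraries of a cone group, atp1a1b in LWS1 replicate 1 was the single case with 0 counts. Its relatives atp1a1a.2, atp1a1a.3 and atp1a1a.5 had 0 counts in every library, and atp1a1a.4 had at most 3.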
